A study of Homo sapiens with 46 samples.

Results

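RNA-seq was performed on HEK293T cells in which the translation of COX1, COX2 or COX3, the mtDNA-encoded subunits of cytochrome c oxidase (complex IV), had been blocked. The 4 COX1 libraries (replicates 1 to 4) were set against the equally weighted mean of the 3 COX2 libraries (replicates 2 to 4) and the 4 COX3 libraries (replicates 1 to 4), over all genes. These are 11 of the 46 libraries of the series, chosen by their labels alone. HEK293T is a line of human embryonic kidney origin, named HEK293-Flp-In T-REx in the methods of the study, and of wild-type genotype per the labels, so that all values come from a single line. The cells had received a chimera, which consists of a morpholino, an uncharged antisense oligomer, joined to the presequence of yeast Cox4, which directs it into the mitochondrial matrix. Chimeras were added at 2 µM together with the delivery peptide Endo-Porter, and the cells were collected after 48 h. The control cells, shown for orientation and absent from the contrast, received the presequence without a morpholino, also for 48 h, and make up 4 libraries. The study describes the libraries of a treatment as biological replicates. Replicates 1 and 2 form batch 1 and replicates 3 and 4 batch 2, which were prepared on separate days with separate lots of reagents, and COX2 has 1 library in batch 1.

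Complex IV is the terminal oxidase of the respiratory chain. COX1, COX2 and COX3 form its catalytic core, made inside mitochondria from mRNAs of mtDNA, while all its further subunits are encoded in the nucleus and imported. COX1 carries the haem groups and is the subunit on which assembly starts. Both strands of mtDNA are transcribed as long precursors, from which tRNAs, rRNAs and mRNAs are cut out.

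The 3 targeted stretches are shown because the comparison turns on them. Each line gives the first 30 bases of the reading frame, which in these mRNAs stands at or next to the 5′ end, read from the GENCODE release 29 transcript (GRCh38), with the stretch that the name of the chimera gives as its target in capitals.
MT-CO1 (chrM:5904-5933, plus strand, COX1 chimera, bases 1 to 19): ATGTTCGCCGACCGTTGACtattctctaca
MT-CO2 (chrM:7586-7615, plus strand, COX2 chimera, bases 1 to 23): ATGGCACATGCAGCGCAAGTAGGtctacaa
MT-CO3 (chrM:9207-9236, plus strand, COX3 chimera, bases 2 to 19): aTGACCCACCAATCACATGcctatcatata
All 3 stretches include the start codon or, in MT-CO3, its last bases. G and C made up 57.9% of the COX1 target, 56.5% of the COX2 target and 50% of the COX3 target.

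In these 11 libraries and the control, total counts ranged from 18876395 to 28121898 per library, except for COX3 replicate 4 with 100698084. The markers KRT8, KRT18, VIM and LIN28B of the line were read at 89.6 CPM (counts scaled to 1000000 per library) or more in all 11 libraries, NEFM at 0.639 to 1.55 CPM. Markers of cardiomyocytes, blood cells and hepatocytes were at 1.61 CPM or less, except ACTN2 at 9.7 to 14.1 CPM.

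COX1 silencing differed from the silencing of COX2 and COX3 in few transcripts, and most of those lay on mtDNA. Of 20272 genes tested, 12 (0.0592%) passed an adjusted p of 0.05 in edgeR's quasi-likelihood test and are termed called below: 7 were higher (0.0345%) and 5 lower (0.0247%). Of these, 7 lie on mtDNA, namely 4 mRNAs (MT-CO1, MT-CO2, MT-CO3, MT-ATP6) and 3 tRNA genes (MT-TY, MT-TC, MT-TN). Another, MTCO1P12, is a nuclear copy of MT-CO1, and the remaining 4 are the nuclear genes BTG2, PIGL, RBM3 and TXNIP. An unadjusted p under 0.05 was reached by 1449 genes (7.15%), 848 of them higher (4.18%) and 601 lower (2.96%). The median log2 fold change of all genes was 0.0025, the median standard error 0.094, and 0.059 among the 10427 genes with a mean of at least 10 CPM. In simulated counts for this comparison, 47 of 67 genes changed 1.2-fold, all 67 changed 1.5-fold and all 66 changed 2-fold were called, together with 4 of the unchanged genes. The changed genes all had a mean of at least 10 CPM and no batch effect was simulated, so recovery among lower genes was not tested. With a replicate block, a term for the replicate number instead of the batch, 27 genes were called, the 12 among them. In fits without 1 of the 11 libraries, 8 to 19 genes were called. The 19 came without COX3 replicate 4, the most deeply sequenced library, and included all 12. When genes of mtDNA and MTCO1P12 were taken out of the table before normalization, a setting added after seeing the data, BTG2 alone was called.

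The targeted mRNA was examined first. MT-CO1 (ENSG00000198804, chrM:5904-7445, a protein-coding gene without introns) stood at 4626, 3961, 4845 and 5661 CPM in COX1 replicates 1 to 4, at 12383, 12542 and 12520.3 CPM in COX2 replicates 2 to 4 and at 13208, 12342, 13263 and 12139.7 CPM in COX3 replicates 1 to 4. All 4 COX1 libraries were below all 7 others, and below the control libraries at 12360.3, 11115, 12487 and 12044 CPM. The log2 fold change of COX1 over the mean of COX2 and COX3 was -1.40 (standard error 0.064, adjusted p = 6.86e-24, edgeR), which is 37.9% of the level after COX2 and COX3 silencing. Within batch 1 alone it was -1.56 and within batch 2 -1.26, both called, and it stayed between -1.48 and -1.33 in all fits without 1 library. CPM are shares of counted RNA in a culture, so a lower level in every cell and a stronger loss in some cells cannot be told apart.

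MT-CO2 (ENSG00000198712, chrM:7586-8269), the target of the COX2 chimera, was at 5517, 4726, 5622 and 7188 CPM in the COX1 libraries, 3806, 4123 and 4467 CPM in the COX2 libraries and 4946, 4773, 5439 and 5752 CPM in the COX3 libraries. The COX2 libraries were the lowest, and the COX1 and COX3 libraries overlapped. MT-CO2 was called in COX1 against COX2 (log2 fold change 0.51, adjusted p = 0.000228) and not against COX3 (log2 fold change 0.14, adjusted p = 0.932), and its difference from the mean of both was 0.32 (standard error 0.065, adjusted p = 0.0165, edgeR). That call was lost without COX1 replicate 1, COX1 replicate 4 or COX2 replicate 3.

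MT-CO3 (ENSG00000198938, chrM:9207-9990), the target of the COX3 chimera, was read at 5532, 4983, 5907 and 6634 CPM after COX1 silencing, 5325, 5879 and 5976 CPM after COX2 silencing and 3260.2, 3364, 4137 and 4351 CPM after COX3 silencing. The 4 COX3 libraries were below all others, while those of COX1 and COX2 overlapped. The log2 difference was 0.33 (standard error 0.057, adjusted p = 0.00116, edgeR), with log2 fold change 0.61, adjusted p = 2.17e-09 against COX3 and log2 fold change 0.04, adjusted p = 0.94 against COX2. MT-ATP6 (ENSG00000198899, chrM:8527-9207), which encodes a subunit of the ATP synthase and adjoins MT-CO3, was also lowest after COX3 silencing, at 3279, 3241, 3417 and 4242 CPM (COX1), 3118, 3412 and 3585 CPM (COX2) and 2218, 2141, 2637 and 2841 CPM (COX3). All COX3 libraries were below the rest, and COX1 and COX2 overlapped. Its log2 fold change was 0.32 (standard error 0.048, adjusted p = 6.31e-05, edgeR), with log2 fold change 0.53, adjusted p = 1.12e-09 against COX3 and log2 fold change 0.11, adjusted p = 0.759 against COX2. MT-CO3 and MT-ATP6 were the 2 genes called between COX2 and COX3 (0.00987% of the genes tested), both higher after COX2 silencing. Neither MT-CO2, MT-CO3 nor MT-ATP6 was called within a single batch, although the difference was positive in both.

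**Figure D1:**
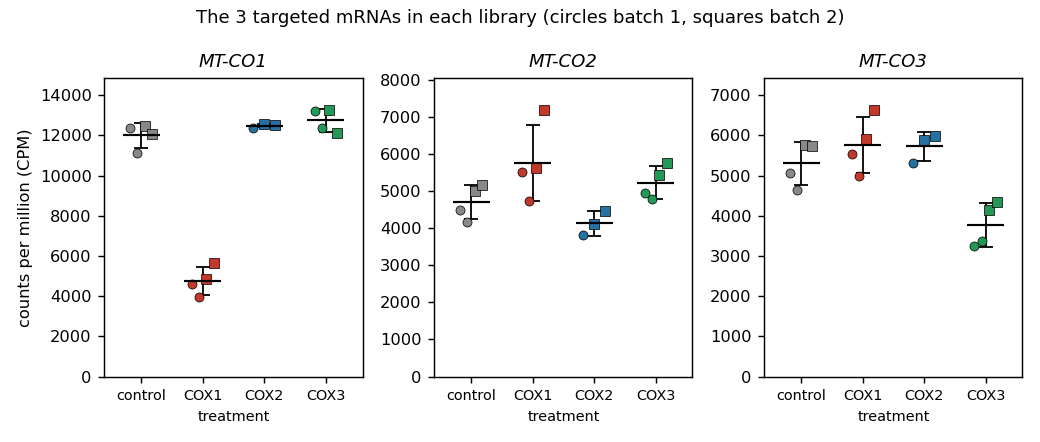
Levels in CPM of MT-CO1, MT-CO2 and MT-CO3 (linear axes from 0) in the control, COX1, COX2 and COX3 libraries, with circles for batch 1, squares for batch 2, horizontal lines for the group means and bars for the SD. The COX1 libraries lie between 3961 and 5661 CPM of MT-CO1 and the COX2 and COX3 libraries between 12139.7 and 13263 CPM, whereas the lowest groups for MT-CO2 and MT-CO3 are COX2 and COX3.

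Of the 3 treatments, each target was at its lowest after its own chimera. MT-CO1 after COX1 silencing was 38.5% of its level after COX2 silencing and 37.4% of that after COX3 silencing. MT-CO2 after COX2 silencing was 70.3% of its level after COX1 silencing, and MT-CO3 after COX3 silencing 65.4%. Against the control libraries, which enter all of the following values alike, MT-CO1 was lower in COX1 (log2 fold change -1.33, adjusted p = 2.25e-21, edgeR) and MT-CO3 in COX3 (log2 fold change -0.49, adjusted p = 9.99e-06, edgeR). MT-CO2 in COX2 did not pass the test against the control (log2 fold change -0.22, adjusted p = 0.182, edgeR).

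The remaining mtDNA-encoded mRNAs, most of them for subunits of complex I, were not called. Among them, MT-ND4 (0.16), MT-ND6 (0.20), MT-CYB (0.17) and MT-ATP8 (0.36) had log2 differences with an unadjusted p under 0.05. MT-ND1, MT-ND2, MT-ND3, MT-ND4L and MT-ND5 lay between -0.08 and 0.00. Of the 13 mRNAs, 7 were thus higher at an unadjusted p under 0.05 (53.8%, against 4.18% of all genes), 3 of them called, and 1 lower. This share is no measure of a general rise, since several of these mRNAs differed from 1 reference treatment more than from the other. MT-CO2 differed more from COX2, and MT-CO3, MT-ATP6 and MT-ATP8 more from COX3. MT-ATP8 was at 0.01 against COX2 and 0.71 against COX3, called in neither. MT-ND6 differed alike from both, by 0.20 and 0.21, called in neither. Over the control MT-ND6 was called higher in COX1 (log2 fold change 0.46, adjusted p = 8.18e-05, edgeR). It was not called over the control in COX2 (0.26, adjusted p = 0.0882) or COX3 (0.25, adjusted p = 0.114, edgeR). MT-ATP8 overlaps MT-ATP6, MT-ND4L overlaps MT-ND4 and the last base of MT-ATP6 is the first of MT-CO3, and reads there could have been counted on either gene.

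In the COX1 libraries MT-CO1 took 12.06% to 12.98% of the counts on the 13 mRNAs, against 27.66% to 31.2% in the COX2 and 28.09% to 33.61% in the COX3 libraries. All mtDNA genes together held 4.33% ± 0.486 of the counts after COX1 silencing (SD, n = 4), 4.82% ± 0.386 after COX2 silencing (SD, n = 3), 4.66% ± 0.325 after COX3 silencing (SD, n = 4) and 4.56% ± 0.414 in the control (SD, n = 4). The groups overlapped. For the test, the COX2 and COX3 libraries of a batch were pooled, each library with the same weight, unlike in the contrast above. Averaged over the batches, the share was 0.364 percentage points lower after COX1 silencing (two-sided exact permutation test with labels exchanged within batches, p = 0.02, where 0.00667 is the smallest p possible). Exchanged across batches, the labels gave p = 0.13 (exact permutation test), and p rose to 0.12 without COX1 replicate 3. With MT-CO1 left out of the counts, the difference turned to 0.386 points higher after COX1 silencing (p = 0.0133, exact permutation test within batches).

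The highest log2 fold change of all 20272 genes was that of a tRNA gene. Directly before MT-CO1 lie the genes of 3 tRNAs, which are transcribed from the opposite strand and carry tyrosine (MT-TY), cysteine (MT-TC) and asparagine (MT-TN). They are shown in their own 5′ to 3′ sense as in GENCODE release 29 (GRCh38, minus strand), with the anticodon in capitals.
MT-TY (chrM:5826-5891, 66 bases, ending 12 bases before MT-CO1): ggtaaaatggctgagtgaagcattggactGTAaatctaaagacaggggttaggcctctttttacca
MT-TC (chrM:5761-5826, 66 bases, 77 bases before MT-CO1): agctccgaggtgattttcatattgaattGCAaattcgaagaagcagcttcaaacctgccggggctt
MT-TN (chrM:5657-5729, 73 bases, 174 bases before MT-CO1): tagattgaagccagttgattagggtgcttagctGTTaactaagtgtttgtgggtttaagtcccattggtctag
MT-TY was read at 52.2, 63.4, 66.6 and 50.03 CPM in COX1 replicates 1 to 4, at 14.2, 15.6 and 17.9 CPM in COX2 replicates 2 to 4, at 14.97, 11.99, 14.8 and 14.5 CPM in COX3 replicates 1 to 4 and at 11.8, 11.7, 13.7 and 13.2 CPM in the control. Every COX1 library was above every other library. The log2 fold change was 1.98 (standard error 0.077, adjusted p = 5.67e-27, edgeR), or 3.94-fold, and was called in both batches alone (2.06 in batch 1, 1.90 in batch 2).

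MT-TC was at 114, 107, 119 and 107 CPM in the COX1 libraries, 40.1, 50.3 and 58.8 CPM in the COX2 libraries, 35.7, 37.3, 45.7 and 43.5 CPM in the COX3 libraries and 35.4, 40.1, 54.7 and 50.1 CPM in the control. Again the COX1 libraries stood above all others, by 1.35 (standard error 0.082, adjusted p = 2.11e-18, edgeR) on the log2 scale, and the call was made in each batch (1.52 and 1.2). MT-TN was at 29.8, 23.9, 27.5 and 28.9 CPM (COX1), 9.84, 15.5 and 25.8 CPM (COX2), 10.8, 10.3, 16.6 and 13.3 CPM (COX3) and 9.67, 10.5, 16.5 and 13.8 CPM (control). Here COX2 replicate 4 lay within the range of the COX1 libraries, the others below. The log2 fold change of MT-TN was 0.98 (standard error 0.13, adjusted p = 1.05e-06, edgeR), called in batch 1 (1.39) and not in batch 2 (0.70, adjusted p = 0.196, edgeR) nor in the fits without a batch term.

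The values of the 3 genes followed their order on mtDNA, the gene nearest to MT-CO1 having the highest fold change. The next tRNA gene upstream, MT-TA, had 0 to 30 counts per library and was not called (-1.21, standard error 0.87), and MT-TW with 2 to 15 counts was not tested. Downstream of MT-CO1, MT-TS1 was at 0.42 (standard error 0.43) and MT-TD at 0.71 (standard error 0.26, adjusted p = 0.58, edgeR). MT-RNR1 and MT-RNR2, the rRNAs, were at -0.17 and -0.02 and not called. Of the 21 tRNA and rRNA genes tested, 4 were higher at an unadjusted p under 0.05 (19%, against 4.18% of all genes), 3 of them called, and 3 lower (14.3%, against 2.96%). The RNA had been enriched for poly(A) tails. Whether the reads on tRNA genes come from mature tRNA, from precursors or from transcripts of the MT-CO1 strand cannot be told apart, since the use of strand in counting is not given in the sources used here.

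**Figure D2:**
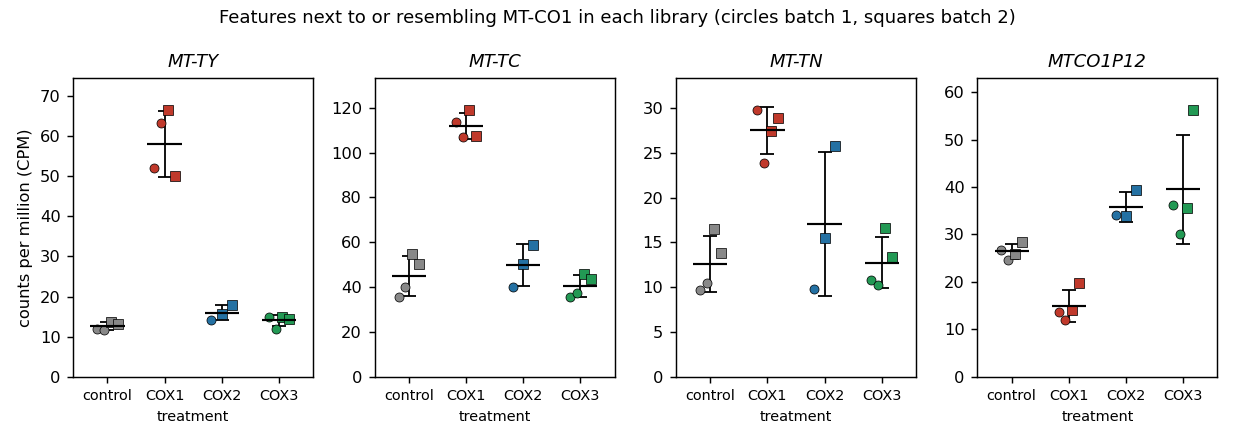
Levels in CPM of MT-TY, MT-TC, MT-TN and the MT-CO1 copy MTCO1P12 (linear axes from 0) by treatment, with circles for batch 1, squares for batch 2, lines for means and bars for the SD. For MT-TY the COX1 libraries lie at 50.0 CPM or more and all others at 17.9 CPM or less, for MTCO1P12 the COX1 libraries are below all others.

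**Figure D3:**
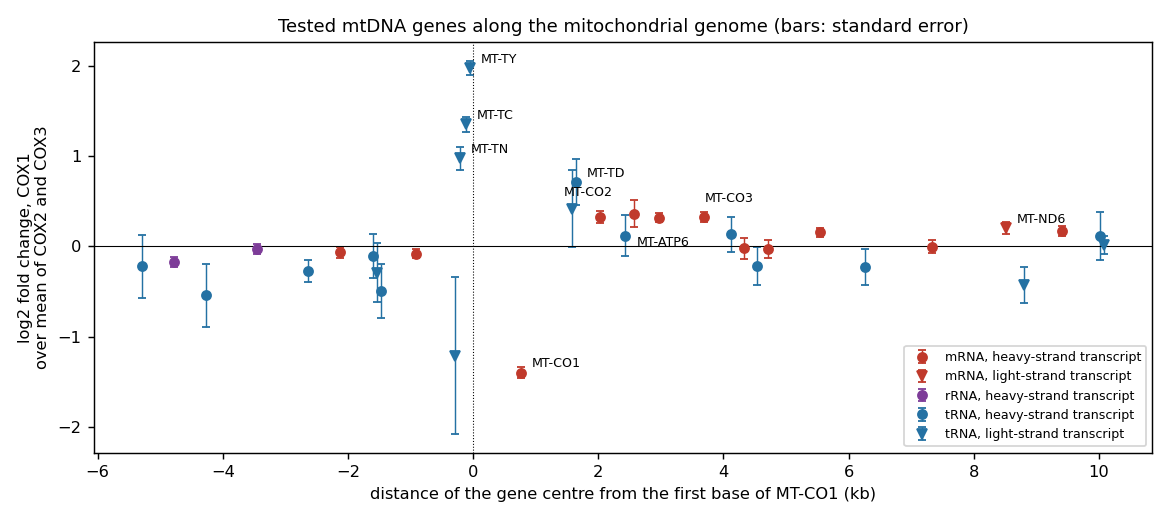
Log2 fold change of COX1 over the mean of COX2 and COX3 with its standard error (vertical axis) for each tested mtDNA gene, against the distance of the gene's centre from the first base of MT-CO1 in kilobases, coloured by RNA class and with triangles for transcripts of the light strand. MT-CO1 is at -1.40 right of the dotted line, and MT-TN, MT-TC and MT-TY climb from 0.98 to 1.98 left of it.

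MTCO1P12 (ENSG00000237973, chromosome 1) is an unprocessed pseudogene, and 1522 of the 1542 bases of MT-CO1 (98.7%) are identical in it, with all 19 bases of the COX1 target among them. Reads of MT-CO1 could have been counted on it. It was at 13.6, 11.98, 14.1 and 19.7 CPM in the COX1, 33.98, 33.97 and 39.3 CPM in the COX2 and 36.1, 30.02, 35.6 and 56.2 CPM in the COX3 libraries, all COX1 libraries being lower than the rest. The log2 fold change was -1.34 (standard error 0.12, adjusted p = 1.78e-11, edgeR), near that of MT-CO1 in this contrast. Against the control the 2 differed. MTCO1P12 was at -0.85 in COX1, 0.40 in COX2 and 0.59 in COX3, and MT-CO1 at -1.33, 0.04 and 0.09. MTATP6P1, a copy with 98.53% of the bases of MT-ATP6, was called higher in COX1 than in COX3 (log2 fold change 0.85, adjusted p = 0.00249) and not called against the mean of both, at 0.51 (standard error 0.14, adjusted p = 0.271, edgeR). Of the 7 copies of mtDNA genes on chromosome 1 that were listed, 4 were tested, and the remaining 2 were not called.

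BTG2 (ENSG00000159388, chromosome 1), an antiproliferative target of p53, had the lowest adjusted p among nuclear genes other than MTCO1P12. It was at 77.4, 76.5, 77.6 and 79.4 CPM in COX1 replicates 1 to 4, 71.2, 65.01 and 65.2 CPM in COX2 replicates 2 to 4 and 62.4, 64.5, 64.6 and 66.5 CPM in COX3 replicates 1 to 4. The COX1 libraries were above all 7 others, and within the range of the control (79.1, 75.1, 81.2 and 77.8 CPM). The log2 fold change was 0.24 (standard error 0.041, adjusted p = 0.000779, edgeR). The call was made in all fits without 1 library and was lost when the fit held the 11 libraries alone (adjusted p = 0.122, edgeR) and within single batches (0.19 in batch 1 and 0.26 in batch 2).

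PIGL (ENSG00000108474, chromosome 17) encodes an enzyme of GPI anchor synthesis. Its levels were 13.4, 14.3, 16.1 and 17.1 CPM in COX1, 16.9, 23.6 and 20.5 CPM in COX2 and 18.1, 19.8, 22.2 and 19.9 CPM in COX3 libraries. The groups overlapped at COX2 replicate 2, the only COX2 library of batch 1. The log2 difference of PIGL in COX1 was -0.38 (standard error 0.077, adjusted p = 0.0173, edgeR), and it was -0.37 in each batch alone, where it was not called.

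RBM3 (ENSG00000102317, chromosome X), a cold-inducible RNA-binding protein, was at 267, 257, 291 and 245 CPM after COX1, 377, 360.5 and 319 CPM after COX2 and 357, 319.5, 353 and 274 CPM after COX3 silencing. The COX3 replicate 4 library fell among the COX1 libraries, the others were higher. RBM3 differed by -0.36 (standard error 0.073, adjusted p = 0.0184, edgeR), by -0.46 in batch 1, where it was called, and by -0.28 in batch 2. The COX1 libraries spanned the control (247, 257, 276 and 250.5 CPM).

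TXNIP (ENSG00000265972, chromosome 1), an inhibitor of glucose uptake controlled by the sugar sensor MondoA, was at 18.4, 19.01, 22.9 and 31.6 CPM in COX1, 25.5, 32.8 and 31.9 CPM in COX2 and 26.5, 24.7, 32.4 and 32.5 CPM in COX3 libraries. Within each batch COX1 was lower on average, while COX1 replicate 4 lay among the COX2 and COX3 libraries. The log2 fold change was -0.34 (standard error 0.072, adjusted p = 0.0237, edgeR), with -0.46 in batch 1 and -0.25 in batch 2, neither called. The control libraries were higher than all COX1 libraries at 35.1, 33.1, 46.2 and 41.9 CPM.

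In fits without 1 library, the calls of PIGL, RBM3 and TXNIP were less stable than that of BTG2. PIGL was called in 6 of these 11 fits, RBM3 in 4 and TXNIP in 5. Each of them was lost without COX1 replicate 1, without COX1 replicate 2 and without COX2 replicate 3, although the direction was kept in all 11 fits. When the fit held the 11 libraries alone, RBM3 stayed called (adjusted p = 0.0139, edgeR). There BTG2, PIGL and TXNIP were not called (adjusted p = 0.122, 0.0649 and 0.184, edgeR). Against the control, whose libraries enter all the following values, the log2 fold changes in COX1, COX2 and COX3 were -0.01, -0.22 and -0.28 for BTG2, -0.07, 0.30 and 0.32 for PIGL, 0.04, 0.45 and 0.34 for RBM3 and -0.78, -0.44 and -0.43 for TXNIP. For BTG2, PIGL and RBM3 COX1 was thus the treatment nearest to the control, for TXNIP the farthest from it.

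**Figure D4:**
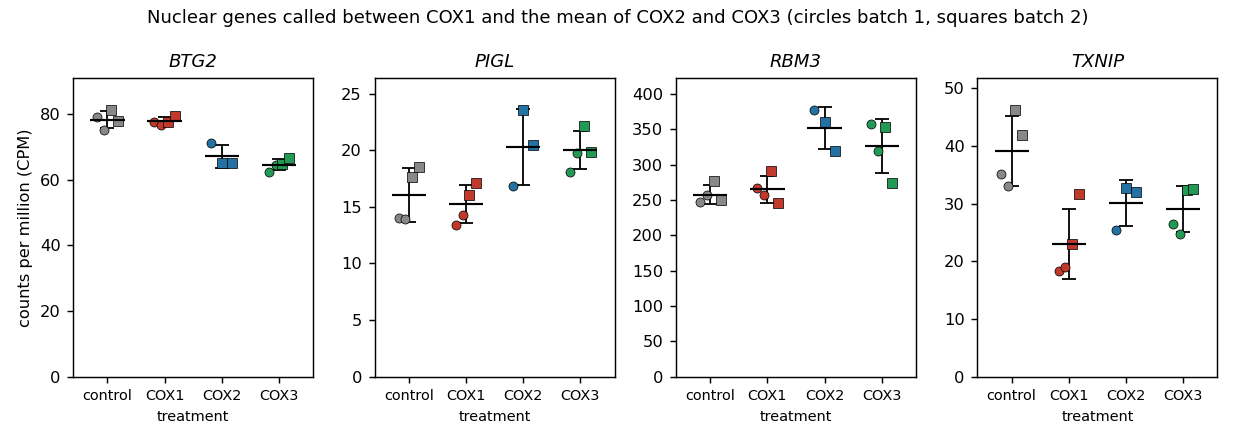
Levels in CPM of the nuclear genes BTG2, PIGL, RBM3 and TXNIP (linear axes from 0) by treatment, with circles for batch 1, squares for batch 2, lines for means and bars for the SD. BTG2 libraries of COX1 lie between 76.5 and 79.4 CPM, above the 62.4 to 71.2 CPM of COX2 and COX3, whereas the groups overlap for PIGL, RBM3 and TXNIP.

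The 10 next genes by p, none of them called, include OPTN, a receptor in the removal of damaged mitochondria, with a log2 difference of 0.18 and an adjusted p of 0.126 (edgeR). SLC6A6, the taurine transporter, was at -0.26, the ubiquitin-binding protein gene PLAA at -0.20, the tropomyosin gene TPM1 at 0.23 and the adhesion molecule gene MCAM at 0.34. TP53INP1, a p53 target, was at 0.28 and MYOM2, a protein of the sarcomere, at 0.44. AP000692.2 (-0.94), KIF25 (-2.08) and FNDC8 (-1.10) were at 3.63 CPM or less in each library. The COX1 libraries of TPM1 (45.1 to 48.5 CPM) were above all COX2 and COX3 libraries (36.1 to 42.9 CPM), and those of PLAA (42.1 to 45.8 CPM) below them (47.7 to 53.6 CPM). Of all 20272 genes, 55 (0.271%) had COX1 above all 7 other libraries and 28 (0.138%) below them. With the replicate block, AP000692.2, TPM1, SLC6A6, MYOM2, MCAM and OPTN were called.

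As separate comparisons, COX1 against COX2 gave 8 calls (0.0395%), 4 higher and 4 lower (0.0197% each) and 13 with the replicate block, and COX1 against COX3 gave 10 (0.0493%), 8 higher and 2 lower (0.0395% and 0.00987%) and 26 with the block. These comparisons share the COX1 libraries. MT-TY, MT-TC, MT-TN, MT-CO1 and MTCO1P12 were called in each. Called against COX2 alone were MT-CO2, RBM3 (log2 fold change -0.41, adjusted p = 0.0407) and the non-coding AP000692.2 (log2 fold change -1.30, adjusted p = 0.00736). Called against COX3 alone were MT-CO3, MT-ATP6, MTATP6P1, BTG2 (log2 fold change 0.27, adjusted p = 0.000789) and SPARC, a secreted matrix protein (log2 fold change 0.61, adjusted p = 0.0148, edgeR, named after its values were seen). A call on 1 side only does not show that COX2 and COX3 differ, and of these genes MT-CO3 and MT-ATP6 were called between them.

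Genes that work with complex IV were examined as lists. Of 14 nuclear complex IV subunits tested none was called and none had an unadjusted p under 0.05 (edgeR), with a median log2 fold change of -0.05 and 12 of 14 below 0 (49.1% of all genes were below 0). COX6A1 (-0.13) and COX7B (-0.14) had the lowest p. Among 31 assembly factors, COX10, which acts in the synthesis of the haem A of COX1, was at -0.17. Its unadjusted p was 0.00792 and its adjusted p 0.59 (edgeR), and it was the only member with an unadjusted p under 0.05. COX19 was at -0.14. In the list of haem synthesis and copper delivery, ALAS1, the rate-limiting enzyme of haem synthesis, was at -0.24 and HMOX1, which degrades haem, at -0.30, neither called. ALAS1 was read at 79.2, 74.6, 68.99 and 56.4 CPM in COX1, 90.9, 85.9 and 75.7 CPM in COX2 and 84.2, 83.3, 79.6 and 66.3 CPM in COX3 libraries, which overlap. With the replicate block, ALAS1 was called (adjusted p = 0.0182, edgeR).

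The other nuclear genes of the mitochondrial machinery had list medians between -0.04 and -0.03, with more members below 0 than above. Below 0 were 26 of 37 complex I subunits (70.3%), 24 of 31 subunits of complexes II, III and V (77.4%), 21 of 29 factors of mitochondrial RNA (72.4%), 15 of 20 chaperones and proteases (75%) and 62 of 82 mitochondrial ribosomal proteins (75.6%), against 49.1% of all genes. Over the control, the COX1 medians of these lists were 0.04 to 0.06, except for the factors of mitochondrial RNA at -0.03. No gene was called among 37 complex I subunits (median -0.03, 1 lower at an unadjusted p under 0.05, edgeR), 31 subunits of complexes II, III and V (-0.04, none), 29 factors of mitochondrial RNA synthesis, processing and stability (-0.04, none), 20 chaperones and proteases (-0.03, 2 lower) and 82 mitochondrial ribosomal proteins (-0.03, 9 lower, or 11% against 2.96% of all genes). The members with the lowest p were NDUFA13 (-0.31) and NDUFAB1 (-0.10) of complex I, SDHB (-0.09) of complex II and ATP5PB (-0.10) of complex V, and MRPL20 (-0.13) and MRPL2 (-0.16) of the ribosome. TBRG4, an RNA-binding protein, and ELAC2, which cuts the 3′ ends of tRNAs from the precursors, were both at -0.09. SPG7 (-0.12), an inner membrane protease, and TRAP1 (-0.11), a chaperone, led their list. The 78 cytosolic ribosomal proteins had a median of -0.00092, with 39 on each side of 0 and none at an unadjusted p under 0.05.

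Stress and metabolic genes showed small differences, most of them negative, and none of the following was called except TXNIP. Among 37 ATF4-dependent genes of the integrated stress response, 9 (24.3%, against 2.96% of all genes) were lower and 0 higher at an unadjusted p under 0.05 (edgeR), with a median of -0.04. SLC7A11, the cystine transporter, was at -0.33 and SLC7A5, the transporter of large neutral amino acids, at -0.23. SLC7A11 is also in the list of NRF2 targets, 17 of whose 20 members were below 0 (85%, against 49.1% of all genes, median -0.10). Of these, 4 had an unadjusted p under 0.05 (20%, against 2.96%), among them TXNRD1 (-0.13), thioredoxin reductase. Of 24 genes of glycolysis and lactate, 19 were below 0 (79.2%, against 49.1% of all genes, median -0.07). At an unadjusted p under 0.05, 6 were lower (25%, against 2.96%) and 2 higher (8.33%, against 4.18%). LDHA, lactate dehydrogenase A, was at 799, 825, 713 and 716 CPM in COX1, 937, 819 and 801 CPM in COX2 and 886, 833, 819 and 814 CPM in COX3 libraries, with overlap between the groups and a log2 difference of -0.16 (standard error 0.04, adjusted p = 0.158, edgeR). PGK1 was at -0.11. LDHA and SLC7A11 were called with the replicate block (adjusted p = 0.0289 and 0.00731, edgeR). In the list of MondoA and ChREBP targets, 7 of 8 were below 0 (87.5%, against 49.1% of all genes, median -0.09), with ARRDC4 at -0.14 next to TXNIP. Over the control, medians in COX1, COX2 and COX3 were 0.07, 0.14 and 0.09 for glycolysis and 0.04, 0.10 and 0.07 for ATF4-dependent genes. They were 0.05, 0.14 and 0.16 for NRF2 targets and -0.07, 0.01 and 0.02 for MondoA and ChREBP targets. Only for the last list was the COX1 median thus below the control. LDHA was at 0.07, 0.25 and 0.21 over the control.

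In the lists of p53 targets and of cholesterol synthesis most members were above 0. Of 23 p53 targets 21 were above 0 (91.3%, against 50.9% of all genes, median 0.06). Of these, 4 had an unadjusted p under 0.05 (17.4%, against 4.18%), with BTG2 called and TP53INP1 next. TP53INP1 was at 29.7, 26.8, 27.3 and 29.7 CPM in COX1, 23.1, 23.2 and 27.2 CPM in COX2 and 20.96, 22.8, 24.3 and 22.4 CPM in COX3 libraries, where COX2 replicate 4 overlaps with the COX1 range. Of 25 genes of cholesterol synthesis 21 were above 0 (84%, against 50.9% of all genes, median 0.05), with TM7SF2 at 0.22 and INSIG1 at 0.13, neither called. Over the control, medians in COX1, COX2 and COX3 were -0.03, -0.07 and -0.13 for p53 targets. For cholesterol synthesis they were -0.04, -0.14 and -0.065. The 21 targets of hypoxia-inducible factor had a median of 0.0012, with 11 above and 10 below 0 and none at an unadjusted p under 0.05, with P4HA2 at 0.10 and PDK1 at -0.11. The interferon list of 24 genes had a median of 0.02 and 1 higher at that p (4.17%, near the 4.18% of all genes), with IFI27 at 0.30 and IFI35 at -0.24. Among 24 immediate early genes and feedback regulators of ERK, 16 were below 0 (66.7%, against 49.1% of all genes, median -0.08). JUN was at 0.17 with all COX1 libraries above the others (326 to 342 CPM against 262 to 323 CPM), and SPRY4 at -0.44. At an unadjusted p under 0.05, 4 members were lower (16.7%, against 2.96% of all genes) and 1 higher (4.17%, near the 4.18% of all genes). None of them was called. The 14 histone cluster genes, most of whose mRNAs lack poly(A) tails, had a median of 0.14, with HIST1H2BD at 0.53.

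**Figure D5:**
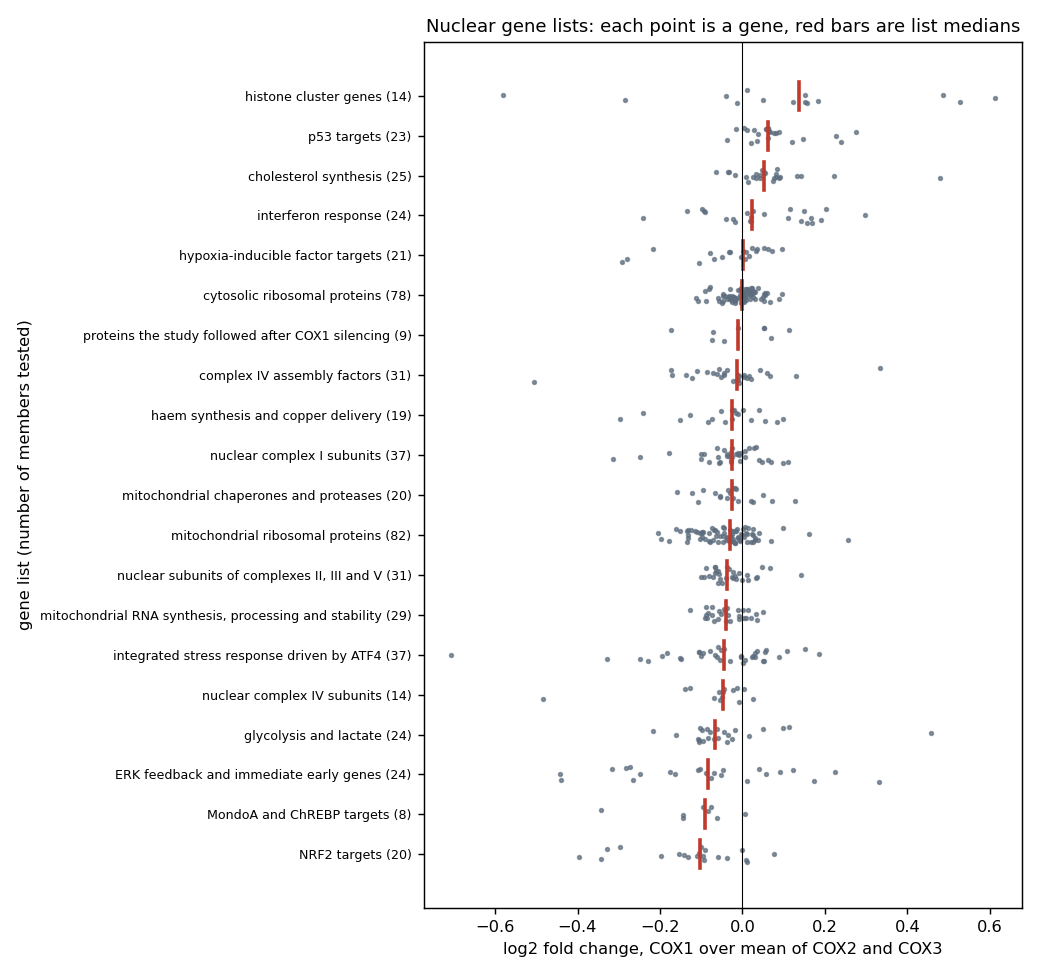
Log2 fold change of COX1 over the mean of COX2 and COX3 (horizontal axis) for each tested member of the nuclear gene lists, 1 row per list with the number tested, points being genes and red bars medians. List medians lie between -0.10 for NRF2 targets and 0.14 for histone cluster genes, against 0.0025 for all genes.

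The study followed 10 proteins by name after COX1 silencing, and 9 of their genes were tested here. None was called in COX1 against the mean of COX2 and COX3, and none had an unadjusted p under 0.05 (edgeR). The study measured protein in isolated mitochondria against the control over a time course. It reported less COX14, COA3, CMC1, PET100 and DRP1 (the product of DNM1L) and more SMIM26. The values here are mRNA at 48 h against COX2 and COX3 silencing, so those protein changes were not tested. SMIM26 was at 0.11, ZNF703 at 0.05, TMEM186 at 0.07 and DNM1L, the dynamin of mitochondrial fission, at 0.05. The complex IV assembly factors in that list, COA3, COX14, CMC1 and PET100, which act on newly made COX1 or on the joining of subunits, were at -0.01, -0.04, -0.07 and -0.17, and PNKD was at -0.07. The standard errors of these 9 genes ranged from 0.04 (DNM1L) to 0.16 (PET100).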

How the data were processed

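Poly(A)-enriched RNA of HEK293T cells was sequenced. The authors deposited raw counts per gene for the 46 libraries in 1 table, together with a gene length. Use of strand, aligner and counter are not given in the sources used here. The submitters' processing notes name R 4.3.0, DESeq2 1.40.2, limma 3.56.2 and the build GRCh38.p12. The series design text describes single-end reads and the methods of the study paired-end reads.

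Counts were fitted in R 4.3.3 with edgeR 4.0.16 (TMM, filterByExpr with a minimum count of 10, quasi-likelihood F test, Benjamini-Hochberg adjustment), with all 46 libraries of the 12 groups in 1 fit and a term for the batch. Of 58735 genes, 20272 were tested. The contrast was COX1 less the mean of COX2 and COX3 on the log2 scale, and CPM use TMM-scaled totals. Alternatives used DESeq2 1.42.0 and limma 3.58.1. The procedure was tested on simulated data. Shares of counts were compared by exact permutation tests.

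The genes and lists were chosen with earlier results of these data known. Named are the 13 mtDNA-encoded mRNAs, all called genes, the 5 called genes with the lowest adjusted p in each pairwise comparison, the 2 members of each list with the lowest p, the 10 next genes by p and the proteins the study followed. Not every gene named by this rule is printed.

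Replicates of a group differed by more than sampling noise (chi-square per degree of freedom 4.126 to 24.53). Replicate numbers come from the labels. Deviations of same-numbered libraries from their group means correlated at 0.103 to 0.325. Other pairs of the same batch reached 0.0561 to 0.288. With a batch term, same-numbered pairs were at -0.255 to 0.00397 and other pairs of the same batch at -0.262 to -0.0963. A batch term by itself lowers correlations within a batch, so this fall does not show that pairing is absent. The main fit held the batch and no pairing, a choice on which the number of calls depends (12, or 27 with the replicate block). Same-numbered libraries were treated as pairs only in the fits with the replicate block.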

Additional observations from a re-analysis of the deposited data

Results flagged for a closer look

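Among 69 groups of 4 libraries examined for a value far from the rest, 3 were flagged. Chance alone would pick about 1 in 20 if the groups were independent. They share the same libraries, so this rate is only a rough guide. The COX2 libraries were not examined in this way. MT-ND3 was at 849.9 CPM in COX3 replicate 4, with the next COX3 library at 650.7 CPM. MT-TY was at 11.99 CPM in COX3 replicate 2, with the next at 14.49 CPM, all of them far below the COX1 libraries. COX3 replicate 4 held 100698084 counts and the next COX3 library 28121898.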

How the results depend on the processing

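MT-TY, MT-CO1, MT-TC and MTCO1P12 were called in all 14 alternatives that could include them, in all 11 fits without 1 library and in each batch alone. The number of genes called in COX1 against the mean of COX2 and COX3 (12) became 5 without a batch term, 21 in DESeq2 with a batch term, 6 in DESeq2 without, 22 in DESeq2 after removeBatchEffect, 57 without a filter, 7 in batch 1 and 4 in batch 2 alone. Against COX2 alone (8) the count was 4 without a batch term, 4 in DESeq2 without one, 16 after removeBatchEffect, 29 without a filter and 5 in batch 2. Against COX3 alone (10) it was 19 in DESeq2 with a batch term, 19 after removeBatchEffect and 45 without a filter. Between COX2 and COX3 (2) it was 0 in edgeR without a batch term (394 genes at an unadjusted p under 0.05), 1 in DESeq2 without one, 17 without a filter and 0 in edgeR in batch 2 (508). The causes were not tested.

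With the replicate number as a block in place of the batch, the counts were 27, 13 against COX2 and 26 against COX3. Leaving out genes of mtDNA and MTCO1P12, chosen after seeing the data like the robust dispersion, left 1, 1, 3 and, between COX2 and COX3, 0 (713 at an unadjusted p under 0.05, edgeR).

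Fits without 1 library gave 8 to 19 calls, 5 to 9 against COX2 (5 without COX1 replicate 2 or COX2 replicate 3), 8 to 20 against COX3 (20 without COX3 replicate 4) and 2 to 3 between COX2 and COX3, and for MT-CO1 -1.48 to -1.33. The difference in mtDNA share was -0.512 to -0.215 points without 1 library, with p = 0.05 without COX1 replicate 1 or 2 and 0.12 without COX1 replicate 3 (exact permutation tests), -0.406 with labels exchanged across batches, and 0.386 without MT-CO1. For single genes other than MT-CO1, 2162 alternative values kept their side of the threshold, 52 gained and 58 lost the call. Among the 2162, 39 uncalled values changed sign and the rest kept their direction. Simulated 1.2-fold changes at these depths were recovered for 47 of 67 genes, all with a mean of at least 10 CPM and without a simulated batch effect.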
